A study of Mus musculus with 6 samples.

Results

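The genes described here encode the initiation and elongation factors of cytosolic translation, with the enzymes and binding proteins named after them. They were chosen by name alone, as every listed gene whose symbol begins with Eif and a digit from 1 to 6, or with Eef and 1 or 2. This gave 87 of the 25361 genes in the deposited table. Hearts came from wild-type (WT) C57BL/6N male mice aged 12 weeks. The control group held 3 untreated mice and the other group 3 mice given ISO+L-NAME for 6 weeks, a treatment that the series title calls an HFpEF model. L-NAME inhibits nitric oxide synthase. All 6 libraries were 3′-end RNA libraries, in which a count does not grow with the length of the message, so levels are given as CPM, that is counts scaled to library sizes adjusted by the TMM method.

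Translation begins when eIF2 brings the initiator tRNA to the small ribosomal subunit, together with eIF1, eIF1A, eIF3 and eIF5. The eIF4 factors bind the cap of the message and unwind its leader, and the large subunit joins with the help of eIF5B. During elongation eEF1A delivers each aminoacyl-tRNA, the remaining eEF1 subunits recharge eEF1A with GTP, and eEF2 moves the ribosome along the message. Mammals have a pair of eEF1A genes. Eef1a1 is used by most cells, whereas Eef1a2 is the form of adult heart muscle, skeletal muscle and neurons.

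In treated hearts the message for the general form of eEF1A, Eef1a1, rose from a mean of 300 to 451 CPM, and that of the muscle form, Eef1a2, did not pass the test. Most other factors were close to their control level. Of the 87 genes, 60 had enough counts to be tested. Of these, 2 were higher (Eef1a1 and Eif6) and 3 were lower (Eif4g3, Eif3i and Eef1akmt1) at an edgeR adjusted p under 0.05, and 55 were not called. That is 8.33% of the tested factor genes, against 6.10% of all 8531 tested genes (3.41% higher and 2.68% lower), so the share called was near that of the whole table. Their median log2 change was -0.03, with 26 above 0 and 34 below, and the median of all tested genes was -0.01. The values of the 2 groups did not overlap for 15 of the 60 factor genes, 8 lower and 7 higher, against 22.7% of all tested genes. Every edgeR adjusted p comes from the quasi-likelihood test, adjusted by Benjamini-Hochberg over all tested genes. A log2 change compares ISO+L-NAME with control, and the value after ± is its standard error (SE).

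Scaling mattered for direction. With total counts in place of TMM, the log2 change of all tested genes had a median of 0.30, and 17 factor genes were called higher and 0 lower, where 16.5% and 0.844% of all genes were called. The factor genes' median was then 0.27. Only Eef1a1 and Eif6 were called, in the same direction, under both scalings. Beside this stands the share of counts from the mitochondrial genome, which was 55.1% ± 1.53 in control and 46.8% ± 1.22 after ISO+L-NAME (SD, n = 3). The factor genes took 0.520%, 0.500% and 0.542% of all counts in the controls and 0.649%, 0.621% and 0.650% in the treated libraries. As a share of nuclear counts alone the groups were closer, at 1.16% ± 0.00775 and 1.20% ± 0.0252, still without overlap. These shares include Eef1a1, which had 1881 counts over the controls and 3656 over the treated libraries. Shares without Eef1a1 were not computed. A share sums over the set and does not show that each gene rose. On the TMM scale the summed level of the 87 genes overlapped, at 5787 to 5876 CPM in controls and 5683 to 5989 CPM in treated hearts.

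**Figure D1:**
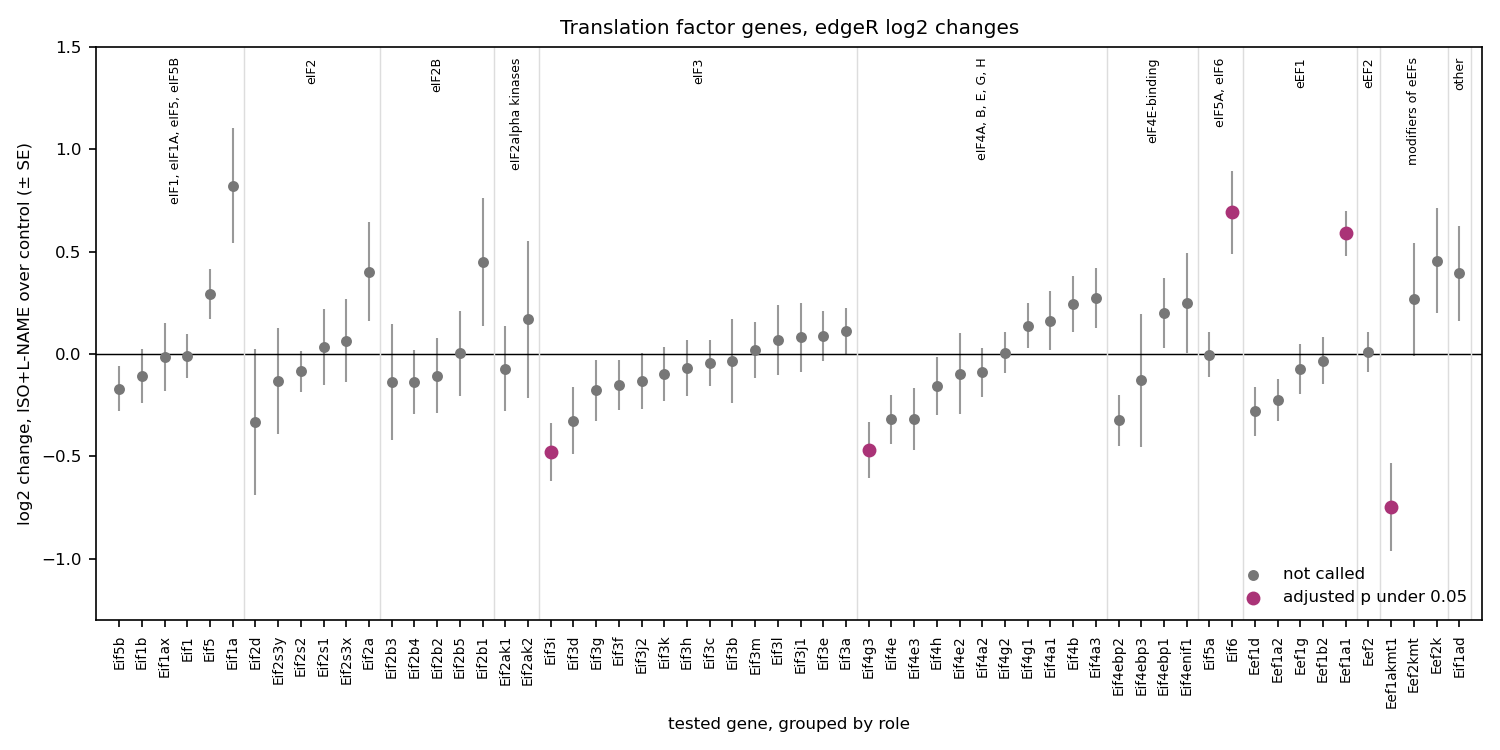
Log2 change of each tested gene, ISO+L-NAME over control (vertical axis, log2 units; bars show the SE), grouped by role along the horizontal axis. The 5 called genes are drawn in purple: Eef1a1 and Eif6 above 0, and Eif4g3, Eif3i and Eef1akmt1 below it.

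The libraries held 2217974 to 2637364 counts each, and the tissue label was checked against markers. All 8 cardiomyocyte markers were detected and tested, with 1 higher (Ryr2) and 2 lower (Myl2 and Myh6), and their summed level ran from 29946 to 31010 CPM in controls and from 24580 to 27463.5 CPM in treated hearts. Of 8 fibroblast markers 5 were higher and 0 lower, and their sum ran from 534 to 815 CPM in controls and from 1035 to 1499 CPM in treated hearts. Of 7 tested macrophage markers 4 were higher and 0 lower, with sums of 151 to 191 and of 302 to 381 CPM. No listed cardiomyocyte, fibroblast or macrophage marker was at 0 in all libraries. Among 6 smooth muscle and pericyte markers 1 was higher and 1 lower. Of 5 listed neutrophil markers only S100a8 had enough counts to be tested, and it was higher. Its mean was 0.98 ± 0.88 CPM in controls and 6.78 ± 3.11 CPM in treated hearts (SD, n = 3). At that control level only its treated libraries could carry it past the count filter. Neutrophil markers as a set were therefore not tested. None of the 7 tested endothelial and 5 erythroid markers was called by edgeR or DESeq2 (3 and 2 at an unadjusted p under 0.05). The single tested atrial marker, Nppa, was not called by either tool and had an unadjusted p above 0.05. No lymphocyte or adipocyte marker had enough counts to be tested, and 3 of 5 adipocyte markers were at 0.

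The eEF1A messages carried the clearest difference, so the start of each coding sequence is shown. The bases were taken from the longest open reading frame of the longest coding transcript in GENCODE M21, and capitals mark the bases at which the genes differ.
Eef1a1: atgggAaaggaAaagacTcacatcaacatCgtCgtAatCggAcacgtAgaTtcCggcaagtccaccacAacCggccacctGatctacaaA
Eef1a2: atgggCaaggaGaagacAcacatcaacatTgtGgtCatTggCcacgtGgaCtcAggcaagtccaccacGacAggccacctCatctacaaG
Of these 90 bases 15 differ, and all 15 stand at the third position of a codon. Over the 1389 aligned coding bases the identity was 80.1%, and the longest identical run was 23 bases. In the last 300 bases of the transcript, where a 3′ library reads, no 50-base word of Eef1a1 occurs in Eef1a2. The only other genes that hold such a word of Eef1a1 are Gm26377 and Gm26384, both annotated as miRNAs.

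Eef1a1 (ENSMUSG00000037742; chromosome 9, 78385731 to 78396433 on the minus strand of GRCm39) stood at 298, 263 and 338 CPM in the controls and at 425, 438 and 490 CPM in the treated hearts. Every treated library lay above every control library. The mean rose from 300 ± 37.9 to 451 ± 34.7 CPM (SD, n = 3), a log2 change of 0.59 ± 0.11 (edgeR adjusted p = 0.00188). It was called under all 16 alternative settings, with a log2 change from 0.49 without control 2 to 0.89 on total counts. Its adjusted p without any 1 library ran from 0.000606 to 0.0237.

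Eef1a2 (ENSMUSG00000016349; chromosome 2, 180789446 to 180798807, minus strand) stood at 466, 483 and 531 CPM in the controls and at 395, 408 and 462 CPM in the treated hearts. Here each treated library lay below each control library, narrowly for the highest treated and lowest control hearts. The log2 change was -0.23 ± 0.10 and did not pass (edgeR adjusted p = 0.246), and on total counts it was 0.07 (edgeR adjusted p = 0.639).

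The balance of the eEF1A forms can be read within a library, which needs no scaling. Eef1a2 supplied 61.0%, 64.8% and 61.1% of the counts of the pair in the controls and 48.2%, 48.3% and 48.5% in the treated hearts. The muscle form was the more abundant in all 3 controls, and the general form was the more abundant in all 3 treated hearts. The mean share was 62.3% ± 2.16 and 48.3% ± 0.183 (SD, n = 3), a difference of -14.0 percentage points. The groups did not overlap, and the exact two-sided permutation p was 0.1, the smallest that 3 against 3 allows. Without any 1 library the difference stayed between -14.6 and -12.7 points. Eef1a1 is also the form of fibroblasts and macrophages, whose summed markers were higher in the treated hearts as given above. Their part in this difference was not tested, and fewer cells of a type and less RNA per cell cannot be told apart in whole tissue.

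**Figure D2:**
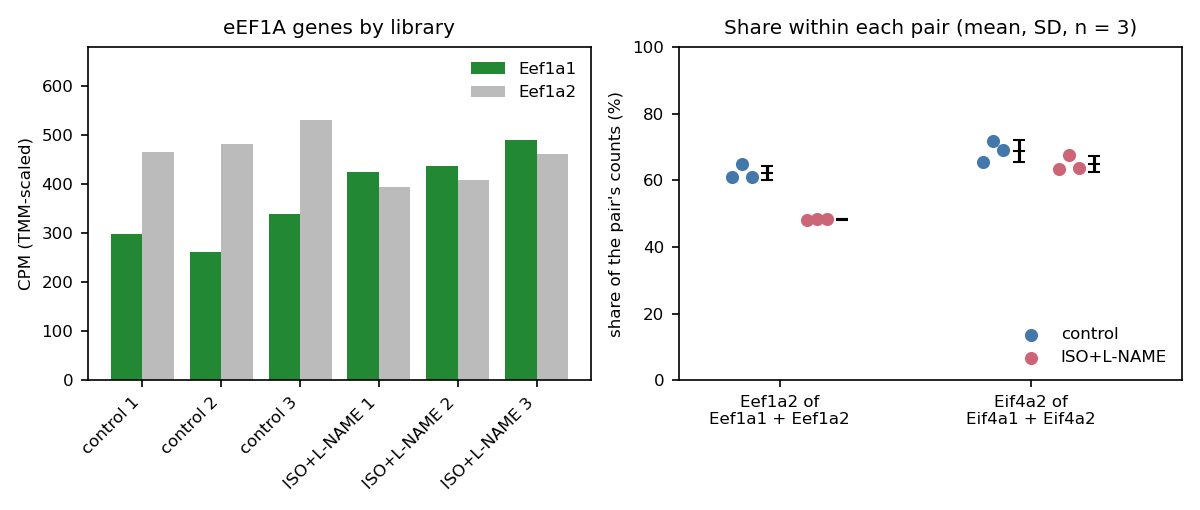
Left, bars give the level of Eef1a1 and Eef1a2 in each library (CPM). Right, points give the share that Eef1a2 takes of the counts of both eEF1A genes, and Eif4a2 of both eIF4A genes (%), per library with mean and SD (n = 3). The Eef1a2 share was 62.3% in controls and 48.3% in treated hearts, without overlap, while the Eif4a2 shares overlapped.

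The 250 bases before each RefSeq gene start (GRCm38.p6, minus strand) are given because these genes are the pair whose balance differed. Capitals mark GC boxes (GGGCGG on either strand).
Eef1a1, chr9:78481725-78481974: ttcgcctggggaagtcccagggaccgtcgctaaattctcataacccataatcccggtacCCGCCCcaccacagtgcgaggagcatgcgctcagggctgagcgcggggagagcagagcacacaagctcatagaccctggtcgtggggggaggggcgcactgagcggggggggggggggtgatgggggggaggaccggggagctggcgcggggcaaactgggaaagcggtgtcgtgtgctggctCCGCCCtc
Eef1a2, chr2:181157016-181157265: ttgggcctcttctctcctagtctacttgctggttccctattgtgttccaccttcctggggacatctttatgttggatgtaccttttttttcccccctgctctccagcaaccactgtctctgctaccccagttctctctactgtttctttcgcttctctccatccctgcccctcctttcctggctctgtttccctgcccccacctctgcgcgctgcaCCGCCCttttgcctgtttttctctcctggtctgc
The Eef1a1 window held 2 GC boxes and the Eef1a2 window 1, a motif found in 32.7% of 32851 windows of this length. Neither window held TATAAA (12.4% of windows) or an E-box, CANNTG (66.2%), on either strand. The G and C content was 68.0% for Eef1a1 and 54.0% for Eef1a2. Such matches describe the letters only.

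The other eEF1 subunits, which return eEF1A to its active form, did not pass. Eef1d, a subunit of the exchange complex, stood at 115, 95.1 and 121 CPM in controls and at 88.0, 91.6 and 92.8 CPM in treated hearts. The groups did not overlap, but the log2 change of -0.28 ± 0.12 was not called (edgeR adjusted p = 0.213). Eef1b2 and Eef1g changed by -0.03 ± 0.12 and -0.07 ± 0.12 (edgeR adjusted p = 0.936 and 0.828). The 3′ end of Eef1b2 shares 50-base words with Paip2b and Vps53, so its counts are uncertain. Eef1e1, a scaffold partner of tRNA synthetases, had 18 counts over the controls and 27 over the treated hearts, too few to test.

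Eef2, the translocation factor, was among the steadiest factors, at 600, 548 and 578 CPM in controls and at 608, 548 and 583 CPM in treated hearts. Its log2 change was 0.01 ± 0.10 (edgeR adjusted p = 0.976), and 0.32 on total counts, where it was called (edgeR adjusted p = 0.0373), close to the median of all genes there. The kinase that inhibits eEF2, Eef2k, stood at 11.4, 11.0 and 9.14 CPM in controls and at 11.0, 13.8 and 19.0 CPM in treated hearts. Those groups overlapped, and the log2 change was 0.46 ± 0.25 (edgeR adjusted p = 0.380). On total counts Eef2k was called higher, at 0.76 (edgeR adjusted p = 0.0425). The median of all genes there was 0.30. Eef2kmt, a methyltransferase of eEF2, differed by 0.27 ± 0.28 (edgeR adjusted p = 0.690).

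Eef1akmt1 (ENSMUSG00000021951; chromosome 14, 57787054 to 57809069, minus strand) encodes a methyltransferase shown in human cells to modify a lysine of eEF1A. It had 38, 47 and 38 counts in the control libraries and 37, 30 and 28 after ISO+L-NAME, or 17.3, 23.5 and 18.3 against 12.3, 11.8 and 10.9 CPM. The CPM values did not overlap, and the mean fell from 19.7 ± 3.33 to 11.7 ± 0.720 CPM (SD, n = 3), a log2 change of -0.75 ± 0.22 (edgeR adjusted p = 0.0419). The call was lost whenever any 1 library was left out (edgeR adjusted p from 0.0506 without control 3 to 0.180 without control 2). It was also lost with DESeq2 and on total counts, where the log2 change was -0.44. The related genes Eef1akmt2, Eef1akmt3 and Eef1akmt4 had 16, 0 and 24 counts over the controls and 33, 1 and 28 over the treated hearts and were not tested.

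**Figure D3:**
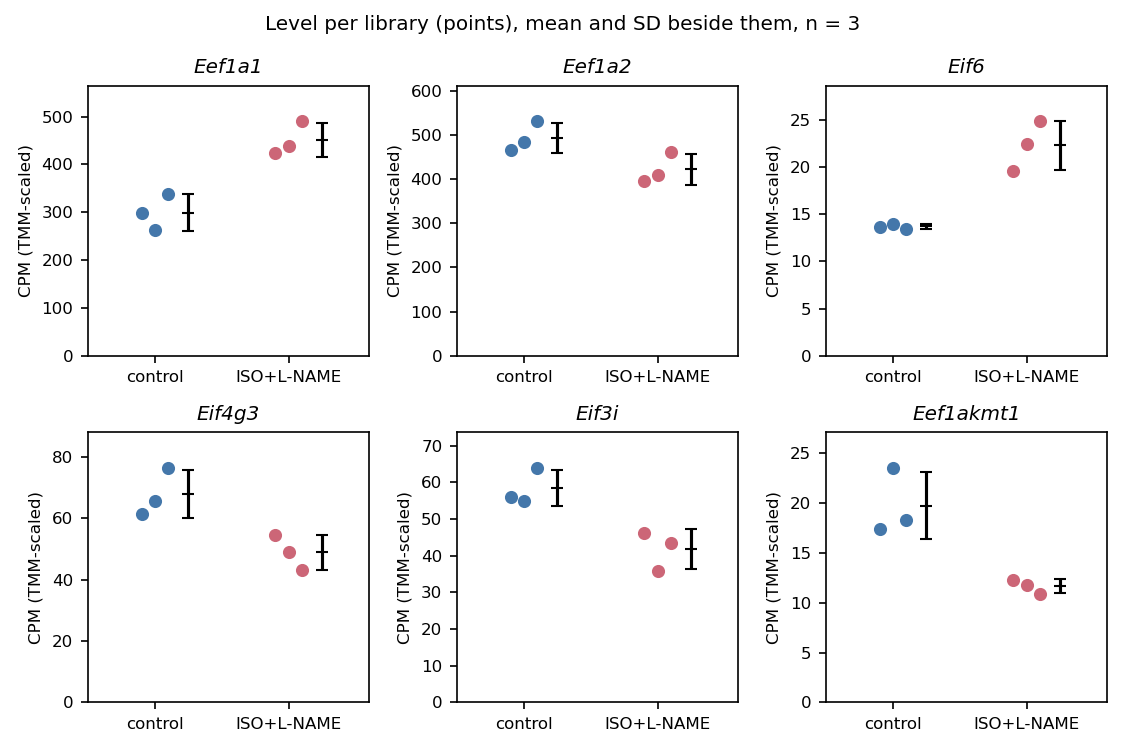
Level per library (CPM, axis from 0) of the 5 called genes and of Eef1a2, with mean and SD (n = 3) beside the points. In each panel the 3 control libraries and the 3 ISO+L-NAME libraries occupy separate ranges, and the change of Eef1a2 did not pass the test.

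Eif6 (ENSMUSG00000027613; chromosome 2, 155661752 to 155668845, minus strand) encodes a factor that binds the large ribosomal subunit and keeps it from joining too early. It had 30, 28 and 28 counts in the control libraries and 59, 57 and 64 after ISO+L-NAME. In CPM this was 13.7, 14.0 and 13.5 against 19.6, 22.4 and 24.8 CPM, with tightly grouped controls and no overlap. The mean rose from 13.7 ± 0.269 to 22.3 ± 2.63 CPM (SD, n = 3), a log2 change of 0.69 ± 0.20 (edgeR adjusted p = 0.0449). The call was lost with DESeq2 (adjusted p = 0.195), with limma-voom (adjusted p = 0.0534) and without any 1 library other than ISO+L-NAME 1 (edgeR adjusted p = 0.0952 to 0.163). Eif5a, which helps the ribosome through difficult peptide bonds, stood at 198 ± 12.0 and 198 ± 16.8 CPM (SD, n = 3), a log2 change of -0.00 ± 0.11 (edgeR adjusted p = 0.997). Its relative Eif5a2 had 0 counts in the controls and 2 in the treated hearts.

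Among the cap-binding, scaffold and helicase genes of the eIF4 group, 1 of 11 tested was lower and 0 were higher, with a median log2 change of -0.09. The gene called was Eif4g3 (ENSMUSG00000028760; chromosome 4, 137720333 to 137935819, plus strand), a scaffold that bridges the cap and the ribosome. It stood at 61.6, 65.5 and 76.5 CPM in controls and at 54.5, 49.1 and 43.1 CPM in treated hearts, without overlap. The mean fell from 67.9 ± 7.74 to 48.9 ± 5.70 CPM (SD, n = 3), a log2 change of -0.47 ± 0.14 (edgeR adjusted p = 0.0452). DESeq2, limma-voom and total counts did not call it, nor did the fits without 1 library other than ISO+L-NAME 1 (edgeR adjusted p = 0.0679 to 0.185).

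The more abundant scaffold genes did not follow it. Eif4g1, the main scaffold, stood at 180, 196 and 180 CPM in controls and at 184, 218 and 209 CPM after ISO+L-NAME, with overlap (log2 0.14 ± 0.11, edgeR adjusted p = 0.577). Eif4g2, a relative that lacks the cap-binding contact, was at 412 ± 22.8 and 414 ± 3.72 CPM (SD, n = 3), a log2 change of 0.01 ± 0.10 (edgeR adjusted p = 0.983). On total counts both were called higher, at 0.44 and 0.31, where the median of all genes was 0.30. A difference in response between Eif4g3 and the other scaffolds was not tested.

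Eif4e, the cap-binding protein, stood at 83.0, 78.6 and 81.3 CPM in controls and at 61.8, 70.8 and 62.5 CPM in treated hearts. The groups did not overlap, and the log2 change was -0.32 ± 0.12 without passing (edgeR adjusted p = 0.140; -0.01 on total counts). Its relative Eif4e3 differed by -0.32 ± 0.15 (edgeR adjusted p = 0.267) and Eif4e2 by -0.09 ± 0.20 (edgeR adjusted p = 0.872). The helicase gene Eif4a1 ran from 44.8 to 61.6 CPM in controls and from 52.3 to 64.1 CPM in treated hearts, with a log2 change of 0.16 ± 0.14. The more abundant paralog Eif4a2 ran from 99.6 to 127 and from 101 to 112 CPM (log2 -0.09 ± 0.12; edgeR adjusted p = 0.630 for Eif4a1 and 0.781 for Eif4a2). On total counts Eif4a1 was called higher, at 0.47 (edgeR adjusted p = 0.0351), and Eif4a2 was not called. Eif4a2 supplied 65.5%, 71.9% and 69.0% of the counts of the pair in controls and 63.3%, 67.7% and 63.7% in treated hearts. The ranges overlapped, with means of 68.8% ± 3.21 and 64.9% ± 2.44 (SD, n = 3; exact two-sided permutation p = 0.2). Among the helper genes, Eif4b, which assists the helicase, stood at 63.4, 67.5 and 50.1 CPM in controls and at 68.1, 68.0 and 78.4 CPM after ISO+L-NAME. The groups stood apart by under 1 CPM, and the log2 change was 0.24 ± 0.13 (edgeR adjusted p = 0.375). Eif4a3, the helicase homolog of the exon junction complex, ran from 29.5 to 37.9 and from 40.9 to 41.9 CPM, also without overlap (log2 0.27 ± 0.15, edgeR adjusted p = 0.361). Its 3′ end shares 50-base words with Gm5576, Gm5580 and Gm8994, so its counts are uncertain. On total counts Eif4b (0.55, edgeR adjusted p = 0.00804) and Eif4a3 (0.58, edgeR adjusted p = 0.0168) were called higher. Eif4e1b was at 0 in all libraries, and a count of 0 allows up to 3 counts per library.

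The repressors that hold eIF4E away from the scaffold had 4 tested genes and 0 calls by edgeR or DESeq2 (1 at an unadjusted p under 0.05). Eif4ebp1 was variable, at 45.2, 62.5 and 36.1 CPM in controls and 47.5, 54.6 and 63.3 CPM after ISO+L-NAME (log2 0.20 ± 0.17, edgeR adjusted p = 0.614). On total counts it was called higher, at 0.51 (edgeR adjusted p = 0.0373). Eif4ebp2 stood at 73.5, 87.1 and 74.6 CPM in controls and at 67.4, 59.4 and 60.6 CPM in treated hearts. It did not overlap between groups and did not pass (log2 -0.32 ± 0.12, edgeR adjusted p = 0.153; -0.02 on total counts). Per Eif4e count there were 0.595 ± 0.182 Eif4ebp1 counts in controls and 0.851 ± 0.140 after ISO+L-NAME (SD, n = 3), with overlap. Eif4ebp3 and Eif4enif1, which shuttles eIF4E into the nucleus, differed by -0.13 ± 0.32 and 0.25 ± 0.25 (edgeR adjusted p = 0.901 and 0.673).

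The eIF3 complex, the large platform on the small subunit, had all 14 listed genes tested, with 1 lower, 0 higher and a median of -0.06. Its messages spanned 27.8 to 189 CPM, from Eif3l to Eif3a. The gene called was Eif3i (ENSMUSG00000028798; chromosome 4, 129485753 to 129494441, minus strand), at 56.1, 55.0 and 64.0 CPM in controls and at 46.2, 35.8 and 43.5 CPM in treated hearts. The groups were apart, and the mean fell from 58.4 ± 4.90 to 41.8 ± 5.40 CPM (SD, n = 3), a log2 change of -0.48 ± 0.14 (edgeR adjusted p = 0.0472). This call was lost with DESeq2, limma-voom, RLE scaling and total counts, and without any 1 library (edgeR adjusted p = 0.0514 to 0.218). A 50-base word in its last 300 bases also occurs in 4930503E24Rik, which GENCODE holds in part as a processed pseudogene.

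The other 13 eIF3 genes had log2 changes from -0.33 for Eif3d to 0.11 for Eif3a. Eif3e, a subunit that contacts the eIF4 scaffold, stood at 70.3, 72.6 and 63.0 CPM in controls and 77.7, 68.8 and 72.2 CPM after ISO+L-NAME, with overlap (log2 0.09 ± 0.12, edgeR adjusted p = 0.780). On total counts Eif3e (0.40, edgeR adjusted p = 0.0368) and Eif3a (0.41, edgeR adjusted p = 0.0207) were called higher. Eif3f did not overlap between groups, at 65.9 to 76.6 CPM in controls and 62.5 to 65.1 CPM in treated hearts, yet its log2 change was only -0.15 ± 0.12 (edgeR adjusted p = 0.591). The 3′ end of Eif3j2 shares 50-base words with Eif3j1, so their counts are uncertain. Eif3j2 took 76.6% ± 1.14 of their sum in controls and 73.9% ± 3.87 after ISO+L-NAME (SD, n = 3).

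**Figure D4:**
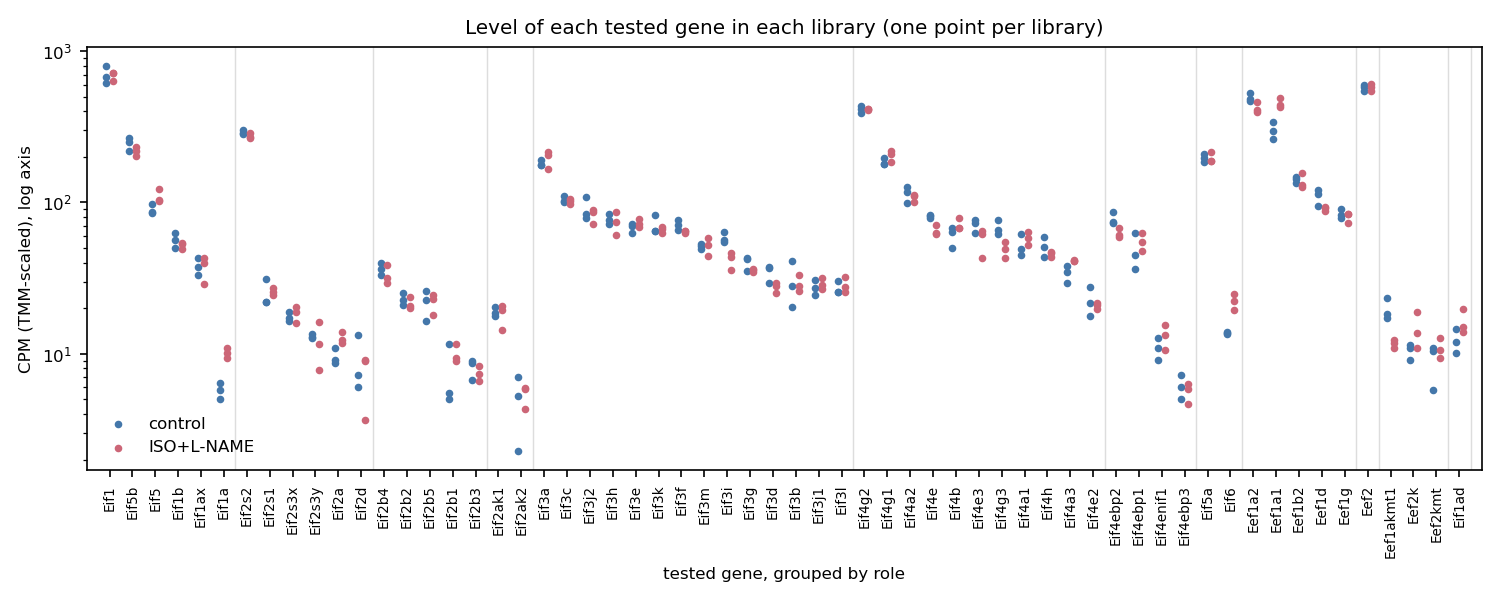
Level of each tested gene in each library (CPM on a log axis), control in blue and ISO+L-NAME in red, ordered within each role by mean level. Eif1, Eef2, Eef1a2, Eif4g2 and Eef1a1 had the highest means, from 375 to 691 CPM, and the 2 groups of points overlap for 45 of the 60 genes.

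The genes for start codon choice and subunit joining had 6 tested and 0 calls by edgeR or DESeq2, with 2 at an unadjusted p under 0.05. Eif1, which keeps the scanning ribosome from starting at a wrong codon, was the most abundant factor message. It stood at 673, 794 and 615 CPM in controls and at 716, 633 and 718 CPM after ISO+L-NAME (log2 -0.01 ± 0.11, edgeR adjusted p = 0.980). On total counts it was called higher at 0.30, the shift of the median gene. Eif5b, the joining factor, stood at 249, 217 and 268 CPM in controls and at 219, 232 and 202 CPM after ISO+L-NAME, with overlap (log2 -0.17 ± 0.11, edgeR adjusted p = 0.478).

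Both genes of this role with an unadjusted p under 0.05 were picked out after their values were seen. Eif1a, a form of eIF1A, had 14, 10 and 12 counts in the control libraries and 33, 24 and 26 after ISO+L-NAME. At 5.72 ± 0.693 and 10.2 ± 0.766 CPM (SD, n = 3) its groups did not overlap, and its log2 change of 0.82 ± 0.28 was the highest of the 60 genes, but it did not pass (edgeR adjusted p = 0.0948). Its paralog on the X chromosome, Eif1ax, stood at a log2 change of -0.01 ± 0.17 (edgeR adjusted p = 0.980). Eif1a supplied 14.6%, 10.4% and 14.8% of the counts of both in controls and 20.2%, 24.5% and 20.3% after ISO+L-NAME, without overlap and from few counts. Eif5, which triggers GTP hydrolysis by eIF2, stood at 85.8, 86.1 and 97.2 CPM in controls and at 103, 123 and 104 CPM after ISO+L-NAME (log2 0.29 ± 0.12, edgeR adjusted p = 0.193). Total counts called both Eif1a and Eif5 higher.

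eIF2 and its exchange factor eIF2B had 0 calls by edgeR or DESeq2 among 6 and 5 tested genes, and 0 at an unadjusted p under 0.05. Eif2s1, the alpha subunit whose phosphorylation slows initiation, stood at 31.0, 22.0 and 22.1 CPM in controls and at 24.6, 25.6 and 27.2 CPM after ISO+L-NAME (log2 0.03 ± 0.18, edgeR adjusted p = 0.956). Eif2s2, the beta subunit, was far more abundant, at 292 ± 8.82 and 275 ± 11.0 CPM (SD, n = 3), a log2 change of -0.08 ± 0.10 (edgeR adjusted p = 0.740). The gamma subunit of these male mice came from both sex chromosomes, and the Y-linked Eif2s3y supplied 42.7% ± 1.80 of its counts in controls and 38.7% ± 9.67 after ISO+L-NAME (SD, n = 3), with overlap. The catalytic eIF2B subunit gene Eif2b5 stood at 21.6 ± 4.84 and 21.7 ± 3.37 CPM (log2 0.00 ± 0.21, edgeR adjusted p = 0.998). Eif2a, which can deliver initiator tRNA by another route, ran from 8.67 to 11.0 CPM in controls and from 11.8 to 14.0 CPM after ISO+L-NAME, without overlap (log2 0.40 ± 0.24, edgeR adjusted p = 0.425). On total counts Eif2a was called higher, at 0.71 (edgeR adjusted p = 0.0468). Within eIF2B the tested log2 changes ran from -0.14 to 0.45.

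The kinases that phosphorylate eIF2alpha were scarce. Eif2ak2, the double-stranded RNA sensor PKR, had 5, 14 and 11 counts in the control libraries and 18, 11 and 15 after ISO+L-NAME (log2 0.17 ± 0.38, edgeR adjusted p = 0.884). Eif2ak3, the endoplasmic reticulum kinase PERK, had 8, 7 and 6 counts in the control libraries and 3, 9 and 4 after ISO+L-NAME, and Eif2ak4, the amino acid sensor GCN2, had 7, 6 and 10 against 7, 11 and 8. Both fell below the count filter and were not tested in the main fit. The fit with no filter tested 67 of the listed genes and gave the same 2 higher and 3 lower calls, so neither kinase was called there. With so few counts a difference could be missed. Eif2ak1, the heme-regulated kinase, was the most abundant of them at 14.3 to 20.8 CPM over all libraries (log2 -0.07 ± 0.21, edgeR adjusted p = 0.916). Of the downstream stress response genes, 5 were tested and 0 called by edgeR or DESeq2 (1 at an unadjusted p under 0.05). Their median was 0.29, against -0.01 for all tested genes, with 4 above 0 and 1 below. The summed level of the 9 listed genes ran from 98.6 to 127 CPM in controls and from 131 to 141 CPM in treated hearts, without overlap. On total counts 2 were called higher and 0 lower.

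Of the 27 listed genes that were not tested, 20 were at 0 in all libraries and 7 had some counts. The 20 comprised 16 Eif1ad copies on chromosome 12, Eif4a3l1, Eif4a3l2, Eif4e1b and Eef1ece2. The tested relative Eif1ad, on chromosome 19, stood at 10.1 to 14.6 CPM in controls and 14.0 to 19.7 CPM after ISO+L-NAME (log2 0.39 ± 0.23, edgeR adjusted p = 0.415). On total counts it was called higher, at 0.70 (edgeR adjusted p = 0.0440). Of the tested genes 19 overlap another listed gene, and the use of strand in counting is not known, so their counts are uncertain. The partner had more counts than the factor gene for Eif1ad (Banf1), Eef1b2 (Ndufs1), Eif2a (Serp1), Eef2kmt (Alg1), Eif4enif1 (Drg1) and Eif2ak1 (Aimp2). None of the 5 called genes overlaps another listed gene. In the last 300 bases of the longest coding transcript, 52 of the 60 tested genes share no 50-base word with another gene. The 8 that do are Eef1a1, Eef1b2, Eif3h, Eif3i, Eif3j2, Eif3m, Eif4a3 and Eif4ebp3. Ends of the other transcripts, of which Eif4g1 has the most among 18 coding transcripts, were not examined.

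**Figure D5:**
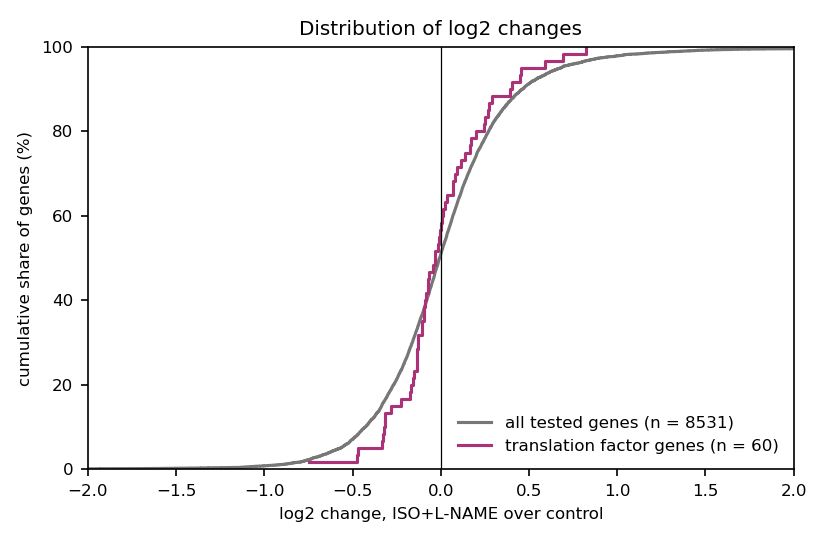
Cumulative share of genes (%) by log2 change, ISO+L-NAME over control, for the 60 tested factor genes and for all 8531 tested genes. Both curves cross the middle close to 0 (medians -0.03 and -0.01), and the factor genes lie between -0.75 and 0.82.

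Of the 81 tested cytosolic ribosomal protein genes 1 was called higher and 1 lower in the same fit, or 2.47% against 6.10% of all tested genes. The median log2 change was -0.10, against -0.01 for all tested genes. Of the 81 values 67 lay below 0, where 4344 of all 8531 tested genes did. Their summed level ran from 24036.9 to 25078.1 CPM in controls and from 22326.1 to 23885.3 CPM after ISO+L-NAME, without overlap. On total counts 14 passed as higher and 0 as lower, and the median was 0.20. Rps13, a small-subunit protein gene, rose from 359 ± 34.7 to 464 ± 39.7 CPM (SD, n = 3), a log2 change of 0.37 ± 0.11 (edgeR adjusted p = 0.0440), a call lost without any 1 library (edgeR adjusted p = 0.0566 to 0.192) and with the deposited library sizes (0.0530). Rpl36, of the large subunit, fell from 302 ± 21.1 to 237 ± 12.8 CPM (log2 -0.35 ± 0.10, edgeR adjusted p = 0.0496). It lost the call without any 1 library other than control 2 (edgeR adjusted p = 0.0844 to 0.211), and with DESeq2 (adjusted p = 0.0826). It also lost it with RLE scaling, no filter, a filter at a mean of 5 CPM, mitochondrial genes left out and the replicate block (edgeR adjusted p = 0.0501 to 0.0539), and on total counts it stood at a log2 change of -0.05.

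The other pathway lists had 0 calls by edgeR, DESeq2 or limma-voom. These were 11 tested genes of poly(A) binding, termination and recycling (median 0.00; 2 at an unadjusted p under 0.05), 16 of mTORC1 and kinases upstream of the factors (median -0.03; 1), 10 mitochondrial translation factors (median -0.04; 2) and 22 cytosolic aminoacyl-tRNA synthetases and partners (median 0.01; 4). Among the factor genes themselves 12 of 60 had an unadjusted p under 0.05, where 18.1% of all tested genes did.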

How the data were processed

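Per the labels' protocols, Trizol RNA from hearts was made into libraries with a QuantSeq forward kit, which reads the 3′ end of polyadenylated messages. The submitters' processing notes name bcl2fastq and GRCm39. The aligner, counter, annotation and handling of strand or of molecular identifiers were not given in the sources used here. The values deposited by the authors are whole-number counts per gene and, per the file headers, a scaled signal called CPM, which is the count times 1 constant per library and served only as alternative library sizes.

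Genes were filtered with filterByExpr (minimum count 10, minimum total 15), scaled by TMM and fitted by quasi-likelihood (edgeR 4.0.16, R 4.3.3) with group as the single factor and a threshold of 0.05. The SE was derived from the log2 change and its F statistic. The common biological coefficient of variation was 10.8%. Replicates differed beyond sampling noise (chi-square per degree of freedom 2.28 to 3.87). The members and lists were chosen with earlier results of these data known. Text names every called member, the 8 most abundant, 20 fixed members and up to 3 called genes per pathway list. Other genes named were chosen after their values were seen. Alternatives were RLE, total counts, mitochondrial genes left out, a robust fit, no filter, a filter at a mean of 5 CPM, limma-voom (limma 3.58.1), DESeq2 1.42.0, the replicate block and each library left out. Library sizes from the deposited signal were an alternative chosen after seeing the data. Of the tested members 46 had a RefSeq promoter entry. The edgeR p-values set the difference between groups against the variation among mice within a group, estimated with information shared across genes. An exact permutation p ranks the observed difference among the allowed relabellings of the libraries. Both rest on these 6 mice.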

Additional observations from a re-analysis of the deposited data

How the results depend on the processing

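Eef1a1 kept its call in all 16 alternatives, and the other 4 called genes kept theirs in 6 to 8 of 16. On total counts 17 genes were higher and 0 lower and the median moved from -0.03 to 0.27; Eif1 (0.30), Eif5a (0.30), Eif2s2 (0.22), Eif4a2 (0.22), Eif5b (0.13) and Eef1a2 (0.0747) changed sign there, and only Eif1 of these was called. DESeq2 called 1 higher and 0 lower, and limma-voom 1 and 1. Leaving out 1 library gave 1 to 2 higher and 0 to 1 lower calls. RLE, mitochondrial genes left out, no filter, a filter at a mean of 5 CPM, the robust fit and the deposited library sizes gave 2 higher and 2 to 3 lower. Against nuclear counts the difference in the factor genes' share was 0.0441 percentage points, against 0.119 of all counts. The groups share replicate numbers, but same-numbered libraries did not deviate together (correlations -0.03 to 0.06). With the replicate block 1 gene was higher and 2 lower, and the eEF1A share difference of -14.0 points had an exact permutation p of 0.25 within pairs, the smallest that 3 pairs allow. The block ended the calls of Eif6, Eif4g3 and Rpl36. Without any 1 library the Eif4a2 share differed by -5.53 to -2.33 points. Of 400 values for 25 named genes, 313 kept direction and call, 54 lost the call, 7 gained it (all on total counts) and 26 changed sign. The other sign changes were in genes not called, most of them near 0. Without 1 library the log2 changes that crossed 0 ran from -0.0401 to 0.0360 for Eif4g2, -0.0316 to 0.0479 for Eef2, -0.0590 to 0.216 for Eif2s1, -0.188 to 0.510 for Eif2ak2, -0.171 to 0.152 for Eif2b5, -0.0749 to 0.0388 for Eif5a and -0.0958 to 0.0889 for Eif1. Eif5a stood at 0.0029 with RLE, 0.0028 with DESeq2 and 0.0011 with no filter, and the deposited library sizes gave -0.0020 for Eif4g2 and -0.0065 for Eif2b5. Why calls near the threshold were lost was not tested. Depth limits Eif2ak2, Eif2ak3, Eif2ak4 and Eif4ebp3, with at most 18 counts in any library.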
